A study of Homo sapiens with 8 samples.

Results

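Cholesterol and fatty acids are built from acetyl-CoA by a chain of enzymes, and 30 genes of these pathways were followed in 2 lung cancer cell lines made resistant to gefitinib, a drug that blocks the kinase of the EGF receptor. The 30 genes fall into 4 roles. There were 7 early mevalonate pathway genes, which make the isoprenoid precursors, and 11 genes of squalene and sterol synthesis. A further 5 were regulators and a sterol carrier, and 7 were genes of fatty acid synthesis and desaturation. A gene was taken from the row of the deposited tables that carried its symbol, and from the row with the highest mean where several did. All 30 were found among the 48405 rows, with SC5DL and SC4MOL under these older names (now SC5D and MSMO1).

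Polyadenylated RNA had been sequenced in HCC4006 and HCC827, human non-small cell lung cancer lines. The 4 groups were gefitinib-resistant HCC4006 cultures, DMSO-carried HCC4006 cultures, gefitinib-resistant HCC827 cultures and DMSO-carried HCC827 cultures, with 2 libraries each. Cultures counted as resistant once they grew routinely in 3 µM gefitinib, and the labels give no more on how long they were adapted or whether a culture was a clone. All cultures grew in medium with fetal bovine serum, which itself brings lipoprotein cholesterol. Resistance and the presence of the drug cannot be told apart. The labels do not say whether paired libraries stem from independent cultures, so p-values cover no more than the difference between 2 libraries, possibly a technical one. In bulk RNA, fewer cells of a type and less RNA per cell cannot be told apart. The columns of a group carry the letters A and B, which were not tied to the replicate numbers of the labels and serve here as names.

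Values are FPKM, fragments per kilobase of transcript after scaling for sequencing depth, and the depth itself is unknown. Between 17406 and 19333 rows lay above 0 in a library. Whole genes were listed at 0 in both libraries of some groups, and such a 0 can be a failed estimate for the locus, so it is given as listed and not as absence. Of the 30 genes, 26 lay above 0 in all 8 libraries, 2 were at 0 throughout (IDI1 and FASN), and 2 were at 0 in whole groups (ACACA and LSS). Further, 3 genes sat on rows that join several gene names, and 15 shared their locus with another row, where fragments may have been split between genes. The 8 epithelial and lung markers found summed to 1802 and 1629 FPKM in resistant HCC4006, against 9506 and 15844 FPKM in DMSO HCC4006. In HCC827 the sums were 11502 and 20216 FPKM in resistant and 16869 and 15686 FPKM in DMSO libraries. Of these markers KRT7 was listed at 0 in every library. Resistant HCC4006 thus carried far less of its epithelial markers, while VIM and 4 other mesenchymal markers summed to 10035 and 10200 FPKM there and to 2368 and 3655 FPKM in DMSO HCC4006. In HCC827 the mesenchymal sums were 809 and 1077 FPKM in resistant and 160.3 and 350 FPKM in DMSO libraries. These sums were nearly all VIM, with 800 and 1071 FPKM in resistant and 154.7 and 341 FPKM in DMSO libraries. ZEB1 overlapped there (5.72 and 5.47 against 5.60 and 7.63 FPKM), and CDH2 and FN1 were listed at 0 in every HCC827 library. Immune, endothelial and fibroblast markers summed to between 13.4 and 119.8 FPKM, and PTPRC, CD3E and CDH5 were at 0 in all 8 libraries.

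The sterol enzymes share a feedback control. The factors SREBP-2 and SREBP-1, made by SREBF2 and SREBF1, lie in the membrane of the endoplasmic reticulum with their escort SCAP, and INSIG1 holds that escort back while sterols are plentiful. When sterols fall, the factors are carried to the Golgi, cut, and enter the nucleus, where they bind sterol regulatory elements together with NF-Y and SP1. SREBP-2 acts mainly on sterol genes and SREBP-1 mainly on fatty acid genes, and INSIG1 is itself a target.

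The promoters of these genes were read from RefSeq (GRCh38.p14), where 26 of the 30 had at least 1 entry, 35 windows in all. Each window covers the 250 bases before an annotated start, and windows of alternative starts of 1 gene can overlap. ACAT2, FDFT1, SQLE and FASN are named only. The 5 windows printed here belong to genes on which the results below turn. SREBF2 was the sole one with a match to the sterol element core. HMGCS1, INSIG1 and SCD were among those that differed most between the HCC4006 controls, and FDPS had 3 CCAAT boxes. FADS2, which differed most between those controls, had 0 CCAAT boxes in its windows and is not printed. MVK and NSDHL, not printed either, had 5 CCAAT boxes each. Capitals mark the box bound by NF-Y (CCAAT, or ATTGG on the other strand) and the sterol regulatory element core TCACNCCAC.

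SREBF2 (chr22:41832855-41833104, plus strand): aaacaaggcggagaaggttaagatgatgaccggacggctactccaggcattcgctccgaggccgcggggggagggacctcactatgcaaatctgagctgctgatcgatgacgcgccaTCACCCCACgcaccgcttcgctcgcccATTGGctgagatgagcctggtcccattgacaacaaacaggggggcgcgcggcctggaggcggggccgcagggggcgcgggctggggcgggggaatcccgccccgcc
HMGCS1 (chr5:43313413-43313662, minus strand): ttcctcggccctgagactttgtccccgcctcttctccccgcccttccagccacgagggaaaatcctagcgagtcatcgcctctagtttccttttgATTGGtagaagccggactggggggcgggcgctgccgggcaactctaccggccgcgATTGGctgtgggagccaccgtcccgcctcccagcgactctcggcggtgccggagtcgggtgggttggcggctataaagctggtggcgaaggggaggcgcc
INSIG1 (chr7:155297628-155297877, plus strand): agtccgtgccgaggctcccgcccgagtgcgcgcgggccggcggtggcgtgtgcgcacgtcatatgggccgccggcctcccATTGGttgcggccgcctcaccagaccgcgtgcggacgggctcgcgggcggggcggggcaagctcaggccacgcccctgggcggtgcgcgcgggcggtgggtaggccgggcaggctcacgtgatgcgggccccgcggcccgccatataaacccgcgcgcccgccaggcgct
SCD (chr10:100346983-100347232, plus strand): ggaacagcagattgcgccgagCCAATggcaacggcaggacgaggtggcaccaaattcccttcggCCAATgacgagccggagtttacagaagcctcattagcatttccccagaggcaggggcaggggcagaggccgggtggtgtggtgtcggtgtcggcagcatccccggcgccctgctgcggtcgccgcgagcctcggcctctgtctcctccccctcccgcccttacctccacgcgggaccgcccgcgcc
FDPS (chr1:155308616-155308865, plus strand): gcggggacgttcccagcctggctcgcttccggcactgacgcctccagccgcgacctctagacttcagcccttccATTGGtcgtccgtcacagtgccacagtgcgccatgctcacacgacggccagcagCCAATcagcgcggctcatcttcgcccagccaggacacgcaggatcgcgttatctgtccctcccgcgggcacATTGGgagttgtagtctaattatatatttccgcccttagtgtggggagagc

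Searched on both strands, CCAAT stood in 23 of the 35 windows (65.7%), belonging to 19 genes, against 32.0% of all 35116 windows in the table. At least 2 copies, with overlapping matches counted apart, stood in 15 windows (42.9%), against 9.53% of all windows. The GC box bound by SP1, GGGCGG, stood in 31 windows (88.6%), against 42.6% of all. TCACNCCAC stood in 1 window (2.86%), against 0.883% of all. That match begins 133 bases before the SREBF2 start, and an ATTGG follows downstream of it. INSIG1 held 1 CCAAT box and 5 GC boxes, and SCD and the printed window of HMGCS1 held 2 CCAAT boxes each. Another HMGCS1 window, not printed, held 0 CCAAT boxes. A match describes the letters of a window and no more, and windows with no match may be bound elsewhere.

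The first comparison asked which of the genes differ between resistant and DMSO cultures of HCC4006. Of the 28 genes tested, 21 had a higher resistant mean on the log2 scale, against 9891 of all 19881 rows. Among the 27 above 0 in every library, the change exceeded the gap between the libraries of either group in 5. That last count was not made over all rows. Fits of log2(FPKM + 0.5) in limma over all rows called 2 of the 28 genes at an adjusted p below 0.05, and 3 had an unadjusted p under 0.05. Over all rows 9.36% were called, so 2 of 28 does not exceed that background. ACACA was called because it is listed at 0 in both DMSO libraries, and TM7SF2 was called lower on a row it shares with C11orf2. Over rows above 0 in every library, 0 of 27 genes were called (lowest adjusted p 0.114), against 88 of all 16484 such rows. An unadjusted p under 0.05 was reached by 2 of the 27 genes, against 2704 of the rows. Few rows were called at all, so the 0 says little about these genes. The median log2 change of the 27 genes was 0.36, and that of all rows above 0 was −0.04. Both resistant libraries lay above both DMSO libraries in 7 of the 27 genes (25.9%), against 22.7% of all rows above 0. Both lay below in 4 (14.8%), against 28.3% of all rows above 0. The size and sign of the median depended on 1 control. Over the 28 tested genes it was 0.43 with all libraries, 1.10 without DMSO library B and −0.24 without DMSO library A.

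The same comparison was made over the 28 genes tested in HCC827. There the median log2 changes were 0.38 for early mevalonate, 0.32 for sterol, −0.14 for regulator and −0.06 for fatty acid genes. In HCC4006 these medians were −0.003, 0.36, 0.53 and 0.70 in the same order. The fit called 2 of 28 genes, both higher (LSS and ACACA), against 6.80% of all rows, and 4 had an unadjusted p under 0.05. Both called genes are listed at 0 in both DMSO libraries of HCC827. Over rows above 0 in every library, 0 of 26 genes were called (lowest adjusted p 0.215), against 19 of all 15917 such rows. An unadjusted p under 0.05 was reached by 2 of the 26 genes, against 2033 of the rows. Here too the 0 says little about these genes. The median log2 change of the 26 genes was 0.17, and that of all rows above 0 was −0.10. Both resistant libraries were higher in 7 of 26 genes (26.9%), against 20.2% of all rows above 0, and both were lower in 4 (15.4%), against 26.3%. Without DMSO library A or without DMSO library B no row of the table was called at all, with 2768 and 2574 rows at an unadjusted p under 0.05, so the count of called genes was 0 in both cases. The median log2 change of the 28 tested genes, 0.23 with all libraries, was −0.04 without DMSO library A and 0.62 without resistant library A.

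**Figure D1:**
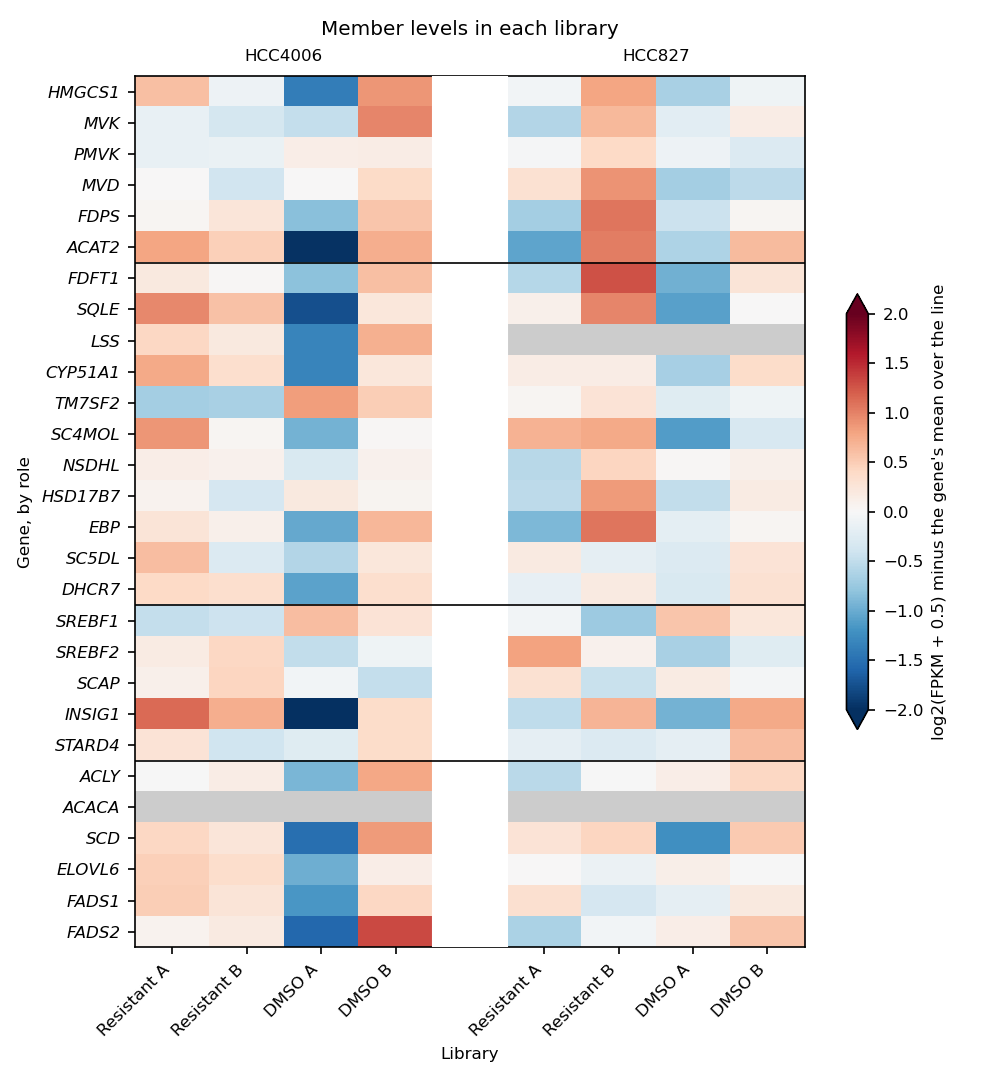
Level of 28 of the 30 genes in each library as log2(FPKM + 0.5) minus the gene's mean over the 4 libraries of its line, with resistant A and B left of DMSO A and B for each line, and genes ordered by role. Colour stops at 2 log2 units either way, and grey marks genes with a group listed at 0 in that line (LSS in HCC827, ACACA in both). DMSO library A of HCC4006 stands below the other 3 libraries of its line in most rows.

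Among the early mevalonate genes, 6 of 7 were measured and 0 were called in either line. HMGCS1 joins acetyl-CoA and acetoacetyl-CoA to HMG-CoA early in the pathway. Its level was 616 and 378 FPKM in resistant HCC4006 and 155 and 751 FPKM in DMSO HCC4006. The DMSO libraries thus held both the lowest and the highest value of the line, and the log2 change was 0.50 (SE 0.88, adjusted p = 0.771). In HCC827 it was 652 and 1162 FPKM in resistant and 427 and 635 FPKM in DMSO libraries, with no overlap and a log2 change of 0.74 (SE 0.42, adjusted p = 0.447). ACAT2, the cytosolic thiolase that supplies acetoacetyl-CoA, stood at 543 and 437 FPKM in resistant and 79.8 and 521 FPKM in DMSO HCC4006. In HCC827 it stood at 112 and 477 FPKM in resistant and 152 and 364 FPKM in DMSO libraries. In 3 of these 4 groups the libraries differed by more than 2-fold, and the log2 changes were 1.25 (SE 1.0, adjusted p = 0.521) in HCC4006 and −0.02 (SE 0.85, adjusted p = 0.994) in HCC827.

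The next 3 enzymes, both kinases and the decarboxylase, turn mevalonate into an isoprenoid. MVK, mevalonate kinase, had 49.7 and 43.5 FPKM in resistant and 39.7 and 109 FPKM in DMSO HCC4006, and 41.1 and 96.8 FPKM in resistant and 53.7 and 68.6 FPKM in DMSO HCC827. Its groups overlapped in both lines. PMVK, the next kinase, had 154 and 157 FPKM in resistant and 188 and 190.4 FPKM in DMSO HCC4006, lower without overlap and by a log2 of −0.28 (SE 0.18, adjusted p = 0.45). In HCC827 it had 197 and 263 FPKM in resistant and 187 and 165 FPKM in DMSO libraries, higher without overlap (log2 change 0.37, SE 0.30, adjusted p = 0.564). Its libraries agreed closely in HCC4006, with A minus B of −0.03 in resistant and −0.02 in DMSO cells on the log2 scale. MVD, the decarboxylase, had 236 and 355 FPKM in resistant and 118 and 133 FPKM in DMSO HCC827. Both resistant libraries were higher, with a log2 change of 1.20 (SE 0.33, adjusted p = 0.157) that missed the threshold over all rows. In HCC4006, MVD had 149 and 114 FPKM in resistant and 149.6 and 193 FPKM in DMSO libraries (log2 change −0.38, SE 0.27, adjusted p = 0.484). The resistant libraries of HCC4006 were the lower ones, though resistant A and DMSO A differed by under 1 FPKM.

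FDPS, which makes farnesyl diphosphate for sterols and for protein prenylation, was the most abundant of the early genes per length. It had 2005 and 2298 FPKM in resistant and 1091 and 2868 FPKM in DMSO HCC4006. In HCC827 it had 1313 and 4387 FPKM in resistant and 1553 and 2148 FPKM in DMSO libraries. Library A was the lower of the pair in all 4 groups, and the changes of 0.28 (SE 0.54, adjusted p = 0.793) and 0.39 (SE 0.66, adjusted p = 0.784) in HCC4006 and HCC827 were smaller than the gap between the DMSO libraries of the same line. IDI1, the isomerase between MVD and FDPS, was listed at 0 in all 8 libraries, as were all 5 rows of its locus (hg19, chr10:1034337-1095110), so nothing can be read from it.

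Of the 11 genes of squalene and sterol synthesis, 1 was called lower in HCC4006 (TM7SF2) and 1 higher in HCC827 (LSS). SQLE, squalene epoxidase, a second control point of the pathway, was higher in the resistant libraries of both lines. It had 295 and 228 FPKM in resistant and 44.3 and 177 FPKM in DMSO HCC4006, and 211 and 387 FPKM in resistant and 92.1 and 196 FPKM in DMSO HCC827. The groups did not overlap in either line, and the log2 changes were 1.54 (SE 0.76, adjusted p = 0.345) and 1.08 (SE 0.53, adjusted p = 0.38). The 95% intervals of −0.61 to 3.70 in HCC4006 and −0.32 to 2.49 in HCC827 both include 0. SC4MOL, the sterol methyl oxidase that removes methyl groups from lanosterol products, had 855 and 889 FPKM in resistant and 242 and 422 FPKM in DMSO HCC827. These groups lay apart (log2 change 1.45, SE 0.37, adjusted p = 0.135). In HCC4006 it had 644 and 358 FPKM in resistant and 182 and 355 FPKM in DMSO libraries (log2 change 0.92, SE 0.50, adjusted p = 0.386), where resistant B and DMSO B were nearly level.

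FDFT1, squalene synthase, takes the first step given over to sterols. It had 802 and 715 FPKM in resistant and 399 and 1069 FPKM in DMSO HCC4006, and 1342 and 4849 FPKM in resistant and 1022 and 2390.2 FPKM in DMSO HCC827. Its groups overlapped in both lines, and resistant library B of HCC827 held the highest level of any of the 30 genes. CYP51A1, the lanosterol demethylase, sits on a row joined with AC000120.8. It had 433 and 321 FPKM in resistant and 102 and 298 FPKM in DMSO HCC4006, apart by a small margin (log2 change 1.10, SE 0.61, adjusted p = 0.398), and 411 and 408 FPKM in resistant and 233 and 477 FPKM in DMSO HCC827, which overlapped.

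LSS, lanosterol synthase, closes squalene oxide into the first sterol and sits on a row joined with AP001468.1 (hg19, chr21:47604992-47648738). It had 167 and 148 FPKM in resistant HCC827 and was listed at 0 in both DMSO libraries of that line (adjusted p = 0.000569). All 3 rows of its locus were listed at 0 in DMSO HCC827 and 1 of the 3 in the other groups. In HCC4006 LSS had 321 and 274 FPKM in resistant and 95.3 and 394 FPKM in DMSO libraries, with overlap (log2 change 0.61, SE 0.77, adjusted p = 0.674). The call in HCC827 therefore rests on 2 values listed at 0, for which no fold is given, and the test over rows above 0 leaves the gene out.

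TM7SF2, a sterol reductase, was measured on a row joined with C11orf2 (hg19, chr11:64863586-64883856). That row had 564 and 574 FPKM in resistant and 1616 and 1261 FPKM in DMSO HCC4006, a log2 change of −1.33 (SE 0.22, adjusted p = 0.0478). Both resistant libraries were lower, by more than the DMSO pair differed. The call was lost over rows above 0 (adjusted p = 0.114), with quantile normalization (0.0647), with no mean-variance trend (0.0726) and without resistant library A or B, where the adjusted p reached 0.402. A second row names TM7SF2 alone (chr11:64883875-64885170). Its locus is much shorter and begins past the end of the joined locus, so the rows cover different sequence. That second row had 56.4 and 35 FPKM in resistant and 1.8 and 52.4 FPKM in DMSO HCC4006, a log2 change of 2.02 in the opposite direction that was not called. In HCC827 the joined row had 861 and 1010.3 FPKM in resistant and 708 and 789 FPKM in DMSO libraries (log2 change 0.32, SE 0.28, adjusted p = 0.587), and the row of TM7SF2 alone had 34.7 and 53.5 FPKM in resistant and 2.65 and 81.6 FPKM in DMSO libraries. The row of TM7SF2 alone was low in DMSO library A of both lines, and which of the rows reflects the sterol reductase was not tested.

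The remaining sterol enzymes gave 0 calls. EBP, the sterol isomerase, had 411 and 367 FPKM in resistant and 168 and 545 FPKM in DMSO HCC4006, and 279 and 1088 FPKM in resistant and 451 and 531 FPKM in DMSO HCC827. DHCR7, which reduces the last double bond on the way to cholesterol, had 1885 and 1794 FPKM in resistant and 679 and 1806 FPKM in DMSO HCC4006. In HCC827 DHCR7 had 813 and 1024 FPKM in resistant and 733 and 1117 FPKM in DMSO libraries. For both genes the groups overlapped in both lines, and in HCC4006 DMSO library A alone was low. SC5DL, the sterol desaturase, had 341 and 184 FPKM in resistant and 149 and 261 FPKM in DMSO HCC4006, and 467 and 367 FPKM in resistant and 343 and 503 FPKM in DMSO HCC827. NSDHL, a sterol dehydrogenase, had 246 and 238 FPKM in resistant and 182 and 239.7 FPKM in DMSO HCC4006, and 169 and 333 FPKM in resistant and 251 and 267 FPKM in DMSO HCC827. HSD17B7, a sterol ketone reductase, had 107 and 80.8 FPKM in resistant and 117 and 106 FPKM in DMSO HCC4006, and 68.4 and 178 FPKM in resistant and 70.1 and 110.3 FPKM in DMSO HCC827. The groups of these 3 overlapped in both lines, and the log2 changes of the 5 genes lay between −0.26 (HSD17B7) and 0.73 (DHCR7) in HCC4006 and between −0.13 (NSDHL) and 0.33 (HSD17B7) in HCC827.

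The 5 regulators and transport genes gave 0 calls, yet 2 of them stood apart from their controls in both lines and in opposite directions. SREBF1, which encodes the SREBP-1 factor, was lower in the resistant libraries. It had 435 and 454 FPKM in resistant and 923 and 726 FPKM in DMSO HCC4006, and 1079.8 and 683 FPKM in resistant and 1656 and 1319 FPKM in DMSO HCC827. The log2 changes were −0.88 (SE 0.22, adjusted p = 0.115) and −0.78 (SE 0.36, adjusted p = 0.357). Without DMSO library B the HCC4006 change of SREBF1 was −1.05. Its locus also holds RAI1 and hsa-mir-33b. SREBF2, which encodes the SREBP-2 factor, was higher, with 369 and 438 FPKM in resistant and 234 and 308 FPKM in DMSO HCC4006, and 394 and 240.4 FPKM in resistant and 145 and 191 FPKM in DMSO HCC827. Its log2 changes of 0.58 (SE 0.25, adjusted p = 0.285) and 0.89 (SE 0.38, adjusted p = 0.322) missed the threshold. Group means were 444 ± 13.5 FPKM in resistant and 825 ± 139.7 FPKM in DMSO HCC4006 for SREBF1 (SD, n = 2 each). For SREBF2 they were 403 ± 49.1 FPKM in resistant and 271 ± 52.6 FPKM in DMSO HCC4006 (SD, n = 2 each). The tables give a gene's total, and neither the isoforms nor the cut factors were measured.

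INSIG1, the sterol-held brake and itself a target of the factors, showed the widest swing among the regulators. It had 1014 and 771 FPKM in resistant and 98.7 and 596 FPKM in DMSO HCC4006. Both resistant libraries were higher than either control (log2 change 1.86, SE 0.97, adjusted p = 0.368), but the controls themselves differed by −2.59 (A minus B, log2). In HCC827 INSIG1 had 287 and 661 FPKM in resistant and 214 and 698 FPKM in DMSO libraries, with overlap (log2 change 0.17, SE 0.74, adjusted p = 0.93). SCAP, the escort, had 249.6 and 312 FPKM in resistant and 223 and 167 FPKM in DMSO HCC4006, apart (log2 change 0.53, SE 0.26, adjusted p = 0.346), and 241 and 142 FPKM in resistant and 219 and 189.8 FPKM in DMSO HCC827, with overlap. STARD4, a cytosolic sterol carrier, had 122 and 75.6 FPKM in resistant and 84.5 and 129.9 FPKM in DMSO HCC4006, with overlap. In HCC827 STARD4 had 134 and 125 FPKM in resistant and 134 and 232 FPKM in DMSO libraries, where DMSO A exceeded the resistant libraries by a narrow margin.

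**Figure D2:**
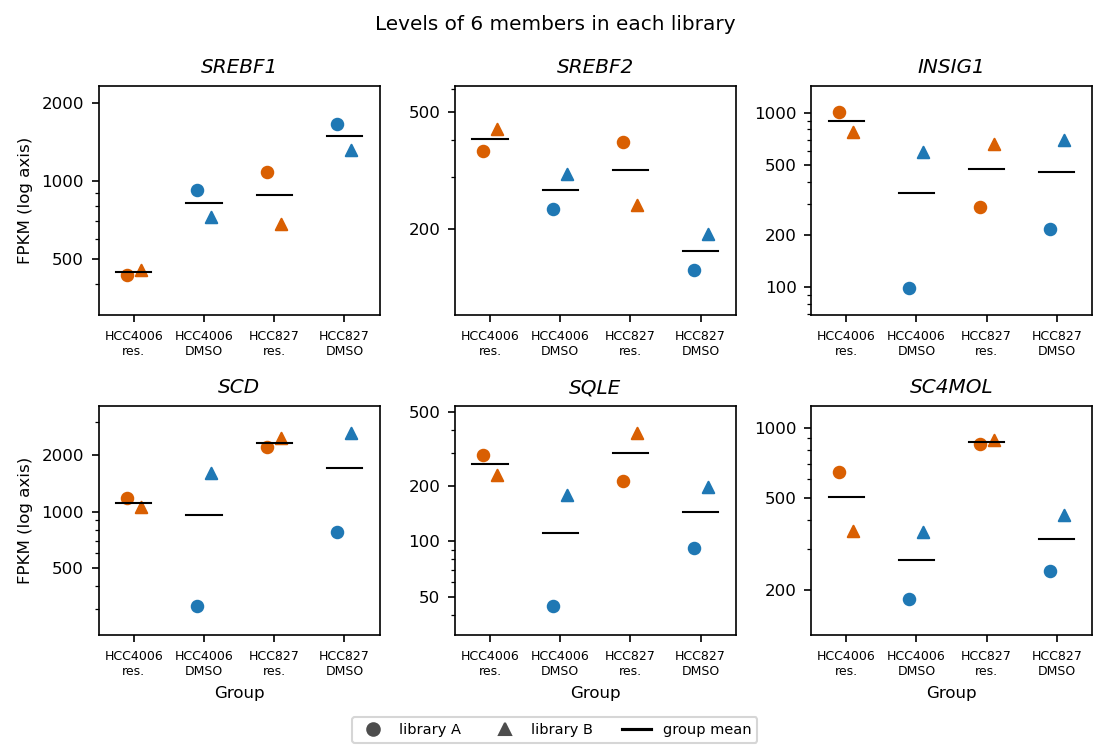
FPKM on a log axis of SREBF1, SREBF2, INSIG1, SCD, SQLE and SC4MOL in every library, resistant left of DMSO for each line, with circles for library A, triangles for library B and a line at the group mean (n = 2). SREBF1 lies lower and SREBF2, SQLE and SC4MOL lie higher in the resistant libraries of both lines, and DMSO library A of HCC4006 is the lowest of its line for INSIG1, SCD, SQLE and SC4MOL.

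Of the 7 fatty acid genes, FASN, the synthase itself, was listed at 0 in all 8 libraries, together with all 12 rows of its locus (hg19, chr17:79935425-80170689). ACACA, acetyl-CoA carboxylase, which commits acetyl-CoA to fatty acids, had 215 and 264 FPKM in resistant HCC4006 and 352 and 184 FPKM in resistant HCC827. It was listed at 0 in both DMSO groups, with adjusted p of 0.000525 in HCC4006 and 0.000745 in HCC827. All 13 rows of its locus (hg19, chr17:35441922-36244363) were listed at 0 in DMSO HCC4006 and in DMSO HCC827, against 4 of 13 in each resistant group. The zeros thus cover a whole locus and no fold is given. ACLY, which makes the cytosolic acetyl-CoA, had 580.4 and 646 FPKM in resistant and 309 and 997 FPKM in DMSO HCC4006, with overlap (log2 change 0.14, SE 0.64, adjusted p = 0.918). In HCC827 ACLY had 738 and 1058 FPKM in resistant and 1167 and 1428 FPKM in DMSO libraries, both resistant ones lower (log2 change −0.55, SE 0.33, adjusted p = 0.469).

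The desaturases and the elongase of these pathways were all lower in DMSO library A than in library B of HCC4006. SCD, the desaturase that makes oleate, had 1179 and 1052 FPKM in resistant and 313 and 1600.2 FPKM in DMSO HCC4006. In HCC827 SCD had 2209 and 2459.8 FPKM in resistant and 776 and 2626 FPKM in DMSO libraries. In both lines the resistant pair lay between the controls, with log2 changes of 0.65 (SE 0.88, adjusted p = 0.694) in HCC4006 and 0.71 (SE 0.64, adjusted p = 0.598) in HCC827. ELOVL6, the elongase of palmitate, had 577 and 529 FPKM in resistant and 209 and 455 FPKM in DMSO HCC4006, apart (log2 change 0.84, SE 0.45, adjusted p = 0.377). In HCC827 ELOVL6 had 609 and 561 FPKM in resistant and 661 and 603 FPKM in DMSO libraries, with overlap.

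FADS1 and FADS2 encode the desaturases of polyunsaturated fatty acids and share 1 locus in the tables, so fragments may have been split between them. FADS1 had 899.5 and 770.2 FPKM in resistant and 286 and 858 FPKM in DMSO HCC4006, and 397 and 251 FPKM in resistant and 279.7 and 364 FPKM in DMSO HCC827. FADS2 had 1237 and 1334 FPKM in resistant and 399 and 2950.5 FPKM in DMSO HCC4006, where the controls differed by −2.88 on the log2 scale. That was the widest gap between HCC4006 controls among the 27 genes above 0. In HCC827 FADS2 was lower in both resistant libraries, at 96.2 and 143 FPKM, against 164 and 219.6 FPKM in DMSO libraries (log2 change −0.69, SE 0.35, adjusted p = 0.399).

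How far 2 libraries of 1 group lay apart was set beside the change with resistance. In DMSO HCC4006, library A was below library B in 23 of the 27 genes above 0, and by at least 2-fold in 16 (59.3%), against 11.9% of all rows above 0 in that group. The median A minus B was −1.41 on the log2 scale for the 27 genes and 0.04 for all rows. The gap ran from −2.88 (FADS2), −2.70 (ACAT2), −2.59 (INSIG1), −2.35 (SCD) and −2.27 (HMGCS1) to 0.42 (SCAP). The genes higher in library A were SCAP, TM7SF2 on its joined row, SREBF1 and HSD17B7. Resistant HCC4006 showed no such split. There library A was lower in 9 of 28 genes and by at least 2-fold in 0, against 2.90% of all rows, and the median A minus B was 0.17.

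Over all roles together, the HCC827 groups were split to a lesser degree and in the same direction. By role this did not hold throughout resistant HCC827. There library A was higher in 4 of 5 regulators (median A minus B 0.66). Among fatty acid genes it was lower in 3 and higher in 3 (median −0.02). In resistant HCC827, library A was lower in 18 of 28 genes and by at least 2-fold in 7 (25%), against 10.4% of all rows. In DMSO HCC827 it was lower in 22 of 26 genes and by at least 2-fold in 6 (23.1%), against 4.86% of all rows. The medians of A minus B were −0.37 in resistant and −0.44 in DMSO HCC827, with 0.00 and 0.11 over all rows. FDPS, ACLY and FADS2 were lower in library A of all 4 groups. In 20 of the 26 genes above 0 throughout, library A was the lower of both DMSO pairs, and SREBF1 and SCAP were higher in library A of both.

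The gap between the HCC4006 controls exceeded the change with resistance in 20 of 27 genes, and the gap between the resistant libraries did so in 6. The size of the DMSO gap had a median of 1.41 on the log2 scale, that of the resistant gap 0.22, and that of the change 0.53. The resistant mean lay above DMSO library A and below DMSO library B in 13 of the 27 genes. Against DMSO library A alone it was higher in 22 genes, with a median log2 difference of 0.98, and against DMSO library B alone it was lower in 18, with a median of −0.29. The direction of the HCC4006 comparison therefore differs with the control library it is set against. In HCC827 the gap exceeded the change in 15 of 26 genes for the resistant libraries and in 16 for the DMSO libraries. The resistant mean of HCC827 was above DMSO A in 19 of 26 genes and above DMSO B in 11. None of these counts was made over all rows, so they describe these genes and do not set them apart from others.

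**Figure D3:**
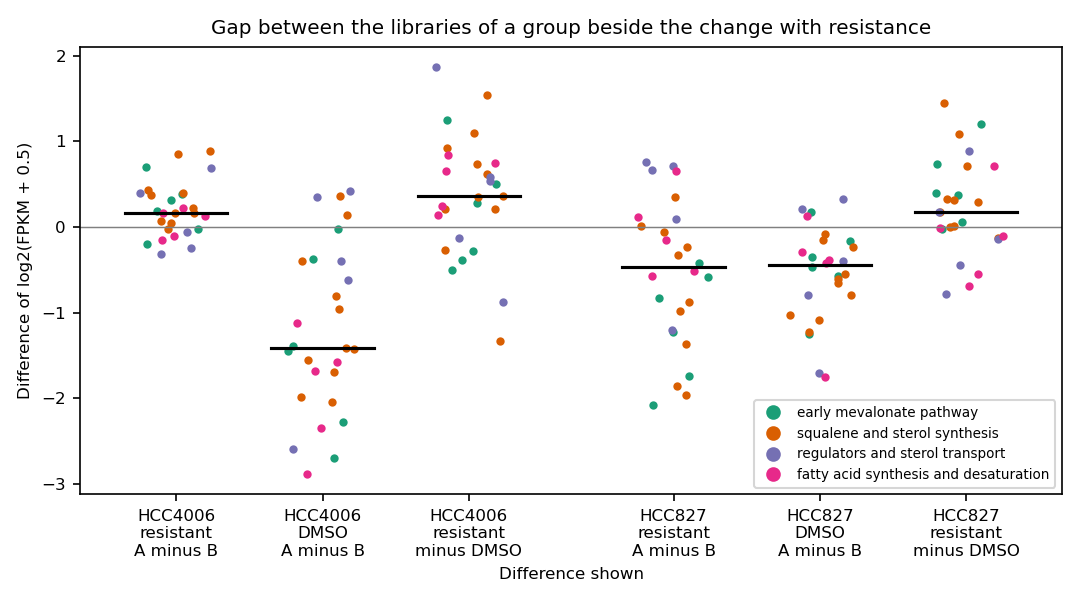
Log2 differences of the genes above 0 in each line: library A minus B in the resistant group, A minus B in the DMSO group, and the resistant minus DMSO change. Points are genes coloured by role and the bar is the median. In HCC4006 the DMSO gap has a median of −1.41 and reaches −2.88, while the changes have a median of 0.36.

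By role, the split of the HCC4006 controls was widest in fatty acid genes, where library A was lower by at least 2-fold in 5 of 5 genes above 0 (median A minus B −1.69). It was so in 4 of 6 early mevalonate genes (median −1.42), in 6 of 11 sterol genes (median −1.41) and in 1 of 5 regulators (median −0.40). Among all 10 proliferation genes, cell cycle and DNA replication genes such as MKI67, PCNA and CCNB1, library A of the HCC4006 controls was also lower by at least 2-fold in 10 of 10 (median −2.34). Their summed levels were 6386 and 7273 FPKM in resistant and 2099 and 9040 FPKM in DMSO HCC4006. In HCC827 these sums were 4021 and 10155 FPKM in resistant and 8981 and 9868 FPKM in DMSO libraries, and in resistant library A all 10 genes were lower than in B, 7 by at least 2-fold. No proliferation gene was called in either line, where 0 also had an unadjusted p under 0.05. DMSO library A of HCC4006 and resistant library A of HCC827 were thus low in proliferation and in sterol genes alike, and the part of proliferation in the results was not tested. The sterol genes were also split in DMSO HCC827, where 6 of 10 proliferation genes were lower in A, 0 of them by at least 2-fold (median −0.14).

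**Figure D4:**
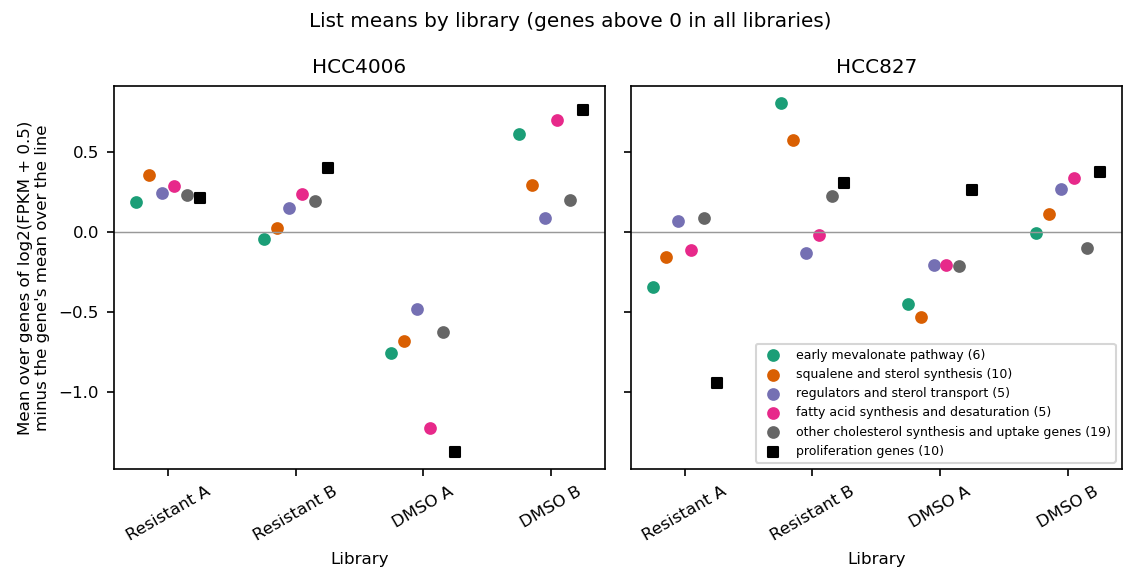
Mean log2(FPKM + 0.5) of each gene list in each library, centred on the mean of its line, over genes above 0 in all 8 libraries, with proliferation genes as squares. In DMSO library A of HCC4006 the mean of the 26 pathway genes is −0.76 and that of the proliferation genes −1.37, and in the other 3 libraries of the line the pathway genes lie between 0.07 and 0.41.

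Genes that move cholesterol out of the cell under liver X receptors ran the other way between the HCC4006 controls. ABCA1, the transporter that loads cholesterol onto apolipoprotein, had 193 and 275 FPKM in resistant and 208 and 22.7 FPKM in DMSO HCC4006. ABCG1, a partner transporter, had 10.2 and 20.4 FPKM in resistant and 119 and 3.37 FPKM in DMSO HCC4006. APOE, an apolipoprotein, had 0 and 1.57 FPKM in resistant and 121 and 9.22 FPKM in DMSO HCC4006. DMSO library A was far above DMSO library B for each, by 3.17, 4.94 and 3.64 on the log2 scale. Of all 17224 rows above 0 in that group, 2534 were at least 2-fold higher in A. In resistant HCC4006 library A was the lower, by −0.51, −0.97 and −2.05 in the same order. Library A was higher in HCC827, by 1.39, 1.05 and 1.38 in resistant and by 0.44, 0.67 and 1.12 in DMSO cells. ABCG1 lay near 0 in that line. These 3 genes were picked after their values were seen. Of the 8 efflux and receptor genes listed, 7 were found and 5 tested. In HCC827 limma called 0, with 0 at an unadjusted p under 0.05, and in HCC4006 it called 1, NR1H3, a liver X receptor. It had 42.9 and 72.2 FPKM in resistant HCC4006 and was listed at 0 in both DMSO libraries (adjusted p = 0.0025). In HCC827 NR1H3 had 141 and 109 FPKM in resistant and 141 and 70.1 FPKM in DMSO libraries, with overlap.

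Among 20 other cholesterol synthesis and uptake genes, 19 were tested and 0 were called in either line, with 4 at an unadjusted p under 0.05 in HCC4006 and 2 in HCC827. Their median log2 changes were 0.31 in HCC4006 and 0.36 in HCC827. DMSO library A of HCC4006 was lower than B in 12 of 19 and by at least 2-fold in 7, against 11.9% of all rows, with a median A minus B of −0.49. GGPS1, which makes the prenyl donor for many small GTPases, had 186 and 209 FPKM in resistant and 310.1 and 345 FPKM in DMSO HCC4006, lower without overlap. In HCC827 GGPS1 had 253 and 269.9 FPKM in resistant and 181 and 135 FPKM in DMSO libraries, higher without overlap.

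Of 25 other fatty acid synthesis and activation genes, 23 were tested in HCC4006, with 4 called higher and 2 lower, and 22 in HCC827, with 1 higher and 1 lower. That is 26.1% in HCC4006 and 9.09% in HCC827, against 9.36% and 6.80% of all rows. Most of these calls again involved groups listed at 0. ELOVL5, an elongase of polyunsaturated fatty acids, had 794 and 829 FPKM in resistant HCC4006 and 655 and 523 FPKM in resistant HCC827, and was listed at 0 in both DMSO groups, as ACACA was. ACSS2, which makes acetyl-CoA from acetate, had 57.6 and 157 FPKM in resistant HCC4006 and was listed at 0 in DMSO HCC4006. ACSL4, which activates arachidonate, on a joined row, had 953 and 703 FPKM in resistant HCC4006 and was likewise at 0 in DMSO HCC4006. PECR, a peroxisomal enoyl-CoA reductase on a row joined with MREG, had 96 and 127 FPKM in resistant HCC4006 against a listed 0 in DMSO HCC4006. In HCC827 PECR was listed at 0 in resistant libraries, against 233 and 282 FPKM in DMSO libraries. Above 0 in all 8 libraries, 2 genes were called. ELOVL7, an elongase of saturated fatty acids, fell in HCC4006, with 8.24 and 5.67 FPKM in resistant and 47.9 and 108 FPKM in DMSO libraries (log2 change −3.30, SE 0.51, adjusted p = 0.0407). HSD17B12, the ketoacyl reductase of fatty acid elongation, was lower there too on a row joined with AC023085.1 and hsa-mir-129-2. That row had 514 and 419.7 FPKM in resistant and 1293 and 1094 FPKM in DMSO libraries (log2 change −1.36, SE 0.22, adjusted p = 0.0479). A second row names HSD17B12 alone and overlapped, with 21.1 and 25.6 FPKM in resistant and 17.3 and 34.8 FPKM in DMSO HCC4006. Over rows above 0 alone, limma called neither ELOVL7 (adjusted p = 0.0824) nor HSD17B12 (0.111). With quantile normalization the HSD17B12 call was also lost (0.06). Both calls were lost when any 1 library was left out, with adjusted p up to 0.461 for ELOVL7 and 0.364 for HSD17B12.

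Whether the genes responded alike in the lines was tested over all 8 libraries as an interaction, with the HCC4006 change subtracted from that of HCC827. Of 28 genes 2 differed, LSS and TM7SF2, against 12.1% of all rows, and 3 had an unadjusted p under 0.05. With 1 library left out, the median difference of the 28 genes ran from −0.60 to 0.51, against −0.07 with all 8. Over rows above 0 in every library 0 of 26 differed (lowest adjusted p 0.0797), against 212 of all 14642 such rows. An unadjusted p under 0.05 was reached by 2 of the 26, against 2782 of the rows. For TM7SF2 on its joined row the difference was 1.65 (SE 0.31, adjusted p = 0.0198), and on the row of TM7SF2 alone it was −0.58, of the other sign. MVD, higher in resistant HCC827 and lower in resistant HCC4006, differed by 1.59 (SE 0.41, adjusted p = 0.0626), and PMVK by 0.66 (SE 0.31, adjusted p = 0.257).

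SQLE, SC4MOL and SREBF2 were the genes with both resistant libraries above both DMSO libraries in each line, 3 of the 26 above 0 throughout, and SREBF1 was the 1 gene with both below. Among all 14804 rows above 0 in every library, 462 (3.12%) were higher and 909 (6.14%) lower in this way in both lines. The differences between the lines were small beside their errors, at −0.46 for SQLE, 0.53 for SC4MOL, 0.30 for SREBF2 and 0.10 for SREBF1, with adjusted p between 0.658 and 0.912. None of the 4 passed the test within a line when all 4 libraries were fitted. The mesenchymal sums given above were also higher in the resistant libraries of both lines, though in HCC827 nearly all of the sum was VIM. The epithelial sums were lower in resistant HCC4006, and the part of these markers in the levels was not tested.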

How the data were processed

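Polyadenylated RNA of 8 libraries, 2 in each of 4 groups, was measured. The authors deposited gene-level FPKM in 2 tables, 1 for each line. TopHat 1.4.1, Cufflinks 1.3.0, Cuffdiff and hg19 are named, per the submitters' processing notes, and these sources name no annotation or options. A TruSeq v2 kit, per the labels' protocols, does not mark strand. There were 0 per-sample columns outside the 8 libraries. FPKM keep no counts, so no counting interval is given. The tables may have been normalized apart, so changes were taken within a line.

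The values were taken as log2(FPKM + 0.5) and fitted in limma 3.58.1 under R 4.3.3 (lmFit, then eBayes with trend). Rows needed a mean of at least 0.5 FPKM. P-values were adjusted after Benjamini-Hochberg over every row fitted, and a gene was called below 0.05. Changes are resistant minus DMSO on this log2 scale, so low genes appear to change less than they do. A line's fit held its 4 libraries, and the difference between lines used all 8. Library A minus B is a description. The fit was tested on simulated data. Intervals are at 95%.

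Named were all 30 genes of the pathways. Of the 3 lists of other pathway genes, those called in any fit were named, or else the 3 with the largest change among genes above 0 throughout. The genes and lists were chosen with earlier results of these data known. Rows on another chromosome than the gene's own were left out (LPCAT3, KRT18), and PECAM1 was not used. Alternatives covered pseudocounts of 0.1 and 5, filters, rows above 0, scaling, trend, 1 fit over all libraries, a replicate block, summed rows and leaving out each library. The values of some other pathway genes are not reported here.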

Additional observations from a re-analysis of the deposited data

Results flagged for a closer look

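Among the 30 genes and the other pathway genes listed, 9 of 76 tested (11.8%) passed the interaction test in limma, HCC827 change minus HCC4006 change, against 12.1% of all rows, so the share is no higher than the background. Of the followed genes these were TM7SF2 on its joined row (log2 difference 1.646) and LSS, whose adjusted p of 0.002298 rests on a listed 0 in DMSO HCC827. TM7SF2 turned sign on the row that carries its name alone. Of the other pathway genes above 0 throughout, GGPS1 differed by 1.465, ELOVL7 by 4.377 and HSD17B12 on its joined row by 1.534. With 1 library left out, adjusted p reached 0.0782 for TM7SF2, 0.118 for GGPS1, 0.162 for ELOVL7 and 0.161 for HSD17B12. The remaining calls have a group listed at 0, and their adjusted p-values were 0.0009344 for NR1H3, 0.001282 for ACSS2, 0.000219 for ACSL4 and 1.019e-05 for PECR.

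A further 4 genes differed in direction between the lines, with no overlap of groups in either, but did not pass the interaction test in the main fit. With TM7SF2 and GGPS1 these made 6 of 62 pathway genes above 0 in all 8 libraries (9.68%), against 14.8% of all such rows. MVD differed by 1.589 (adjusted p = 0.0626) and PMVK by 0.6553 (adjusted p = 0.257). SLC25A1, the citrate carrier of mitochondria, differed by 1.113 (adjusted p = 0.217). MCAT, a mitochondrial acyltransferase, differed by −1.018 (adjusted p = 0.165).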

How the results depend on the processing

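The count of called genes was 2 in each line and in the difference between lines. Over rows above 0 alone it was 0 in all 3. Genes with groups listed at 0 leave that test, while TM7SF2 stays in it with adjusted p of 0.114 in HCC4006 and 0.0797 in the difference. In HCC4006 it was 1 with quantile normalization, 1 with no mean-variance trend and 1 with a replicate block by column letter, where the joined TM7SF2 row had an adjusted p of 0.127. In the difference between lines, quantile normalization gave 3, with MVD added at an adjusted p of 0.0497 in limma. The replicate block gave 1 in that difference, where TM7SF2 was lost (0.0787). The cause of these losses was not tested. Columns carry no replicate number of the labels, and libraries of the same letter deviated with a correlation of −0.077 in HCC4006 and 0.205 in HCC827, so the letters were not taken as a pairing, and for HCC827 these values do not settle it. Over all rows the replicate block called 1400, 1485 and 1687 in HCC4006, HCC827 and the difference, against 1860, 1314 and 2501 without it, and rows above 0 alone gave 88, 19 and 212. Quantile normalization shifted the median of all rows to −0.19 in HCC4006 and −0.24 in HCC827. TM7SF2 turned to 2.02 in HCC4006 and to −0.58 in the difference on the row of TM7SF2 alone, chosen after seeing the data. In HCC827 signs turned for MVK (−0.079) and DHCR7 (−0.062) with quantile normalization, and for ACAT2 (0.091), SC5DL (0.11), ELOVL6 (0.0022) and FADS1 (0.098) with median scaling, all close to 0. Among fits that left out 1 library, the highest counts in HCC4006 and in the difference came without DMSO library B of HCC4006. More of all rows were called there too than with all libraries. Leaving out 1 library assumes that a lone sample varies like the other groups, so its counts are not read as results. It gave counts of 1 to 9 in HCC4006, with a median change of −0.24 to 1.10, 0 to 2 in HCC827, with a median of −0.04 to 0.62, and 1 to 4 in the difference, with a median of −0.60 to 0.51. Log2 changes that turned sign ran, in HCC4006, over −0.64 to 1.64 for HMGCS1, −1.22 to 0.23 for MVK, −0.42 to 0.98 for FDPS, −0.10 to 2.60 for ACAT2, −0.50 to 0.92 for FDFT1, −0.41 to 1.63 for LSS, −0.49 to 1.21 for EBP, −0.10 to 0.79 for SC5DL, −0.47 to 0.21 for STARD4, −0.70 to 0.98 for ACLY, −0.52 to 1.83 for SCD, −0.043 to 1.54 for FADS1 and −1.20 to 1.68 for FADS2. In HCC827 they ran over −0.56 to 0.67 for MVK, −0.48 to 1.26 for FDPS, −1.06 to 1.02 for ACAT2, −0.22 to 1.63 for FDFT1, −0.22 to 0.81 for CYP51A1, −0.62 to 0.36 for NSDHL, −0.36 to 1.01 for HSD17B7, −0.81 to 1.15 for EBP, −0.28 to 0.27 for SC5DL, −0.29 to 0.32 for DHCR7, −0.52 to 0.24 for SCAP, −0.68 to 1.02 for INSIG1, −0.17 to 1.59 for SCD and −0.34 to 0.31 for FADS1. Depth is unknown, so what it limits cannot be given.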

Other observations

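Genes of lipid handling outside the 30 also stood apart, and those named here were picked after their values were seen. ACSL1, which activates long-chain fatty acids, had 118 and 68.1 FPKM in resistant and 13.7 and 4.88 FPKM in DMSO HCC827 (log2 change 3.37, SE 0.61, adjusted p = 0.0523). In HCC4006 ACSL1 had 51.7 and 55.6 FPKM in resistant and 26.1 and 16.2 FPKM in DMSO libraries (log2 change 1.36, SE 0.32, adjusted p = 0.106). Both resistant libraries were higher in each line, and neither value passed the test in limma. MBTPS2, a protease that cuts SREBP factors, on a row joined with YY2 and Y_RNA, had 119.9 and 117 FPKM in resistant and 75.5 and 62.2 FPKM in DMSO HCC4006, and 96.3 and 69.1 FPKM in resistant and 49.9 and 50.8 FPKM in DMSO HCC827. Its groups lay apart in both lines, with adjusted p of 0.139 in HCC4006 and 0.357 in HCC827. NPC1, which exports cholesterol from lysosomes, had 429.9 and 427 FPKM in resistant and 312 and 187 FPKM in DMSO HCC4006, and 235 and 164 FPKM in resistant and 117 and 159 FPKM in DMSO HCC827, again apart without a call. SOAT1, which esterifies cholesterol for storage, had 688 and 524 FPKM in resistant and 202 and 354 FPKM in DMSO HCC4006 (log2 change 1.17, SE 0.37, adjusted p = 0.185), and 427 and 265 FPKM in resistant and 408 and 480.0 FPKM in DMSO HCC827 (log2 change −0.40, SE 0.35, adjusted p = 0.592). The resistant libraries were higher in HCC4006 alone, and the difference between the lines was −1.56 (SE 0.53, adjusted p = 0.128).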
